A study of Oryza sativa with 6 samples.

Results

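The genes most strongly lowered in flag leaves of an OsSLAC7 mutant of rice (Oryza sativa) were chosen by their levels on the Affymetrix Rice Genome Array. A gene was taken when its mutant mean lay 1 or more below its wild type mean on the log2 scale, which is a halving or more, and when the highest mutant array lay below the lowest wild type array. Of 17905 genes measured, 53 (0.296%) met these thresholds, and OsNAS3, OsKSL10, MADS34 and GRXC15 were left out, so that 49 genes are described here. The same thresholds turned round, for a rise, were met by 540 genes (3.02%). Because the levels in these 6 arrays chose the genes, their falls are given as a description and no test of them is made.

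Both groups were untreated flag leaves, the leaf below the panicle, of the japonica cultivar Zhonghua11, grown in a greenhouse and then in the field. Wild type plants gave 3 arrays. The other 3 arrays came from plants of the same cultivar that carry a T-DNA insertion in OsSLAC7 (Os01g0385400), a single mutant line as far as the labels say. The labels call the arrays of a group biological replicates without saying how many plants or which age stood behind each, and their number limits the precision of every value. The targeted gene could not be matched by name to a probe set and is not analysed here.

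OsSLAC7 belongs by its name to the SLAC family of slow anion channels, whose founding member in Arabidopsis, SLAC1, lets anions leave guard cells when stomata close. T-DNA is the stretch of DNA that Agrobacterium transfers into a plant genome, and where it lands within a gene it can disrupt that gene. Neighbouring genes in plant genomes can arise by local duplication and can be expressed alike, so the genes next to each lowered gene are given as well. In leaf RNA as a whole, fewer cells of a type and less RNA per cell cannot be told apart.

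Only 1 of the 49 genes, pla2-II (LOC4332319), carried a name beyond a locus or clone identifier in the RefSeq gene table. Of all 17905 genes, 2472 did. The 4 genes left out met the same thresholds and all carry such names, so leaving them out lowered the count among the chosen genes. The other 48 of the 49 are called by their RefSeq identifiers, and no function is assigned to them here. RefSeq lists 48 of the 49 as protein-coding and LOC4331496 as a long non-coding RNA. Wild type means of the 49 ran from 3.76 to 13.04 with a median of 8.31, and mutant means from 2.67 to 10.99 with a median of 7.05. Probe sets bind their targets unequally, so these levels do not rank one gene's transcript against another's.

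**Figure D1:**
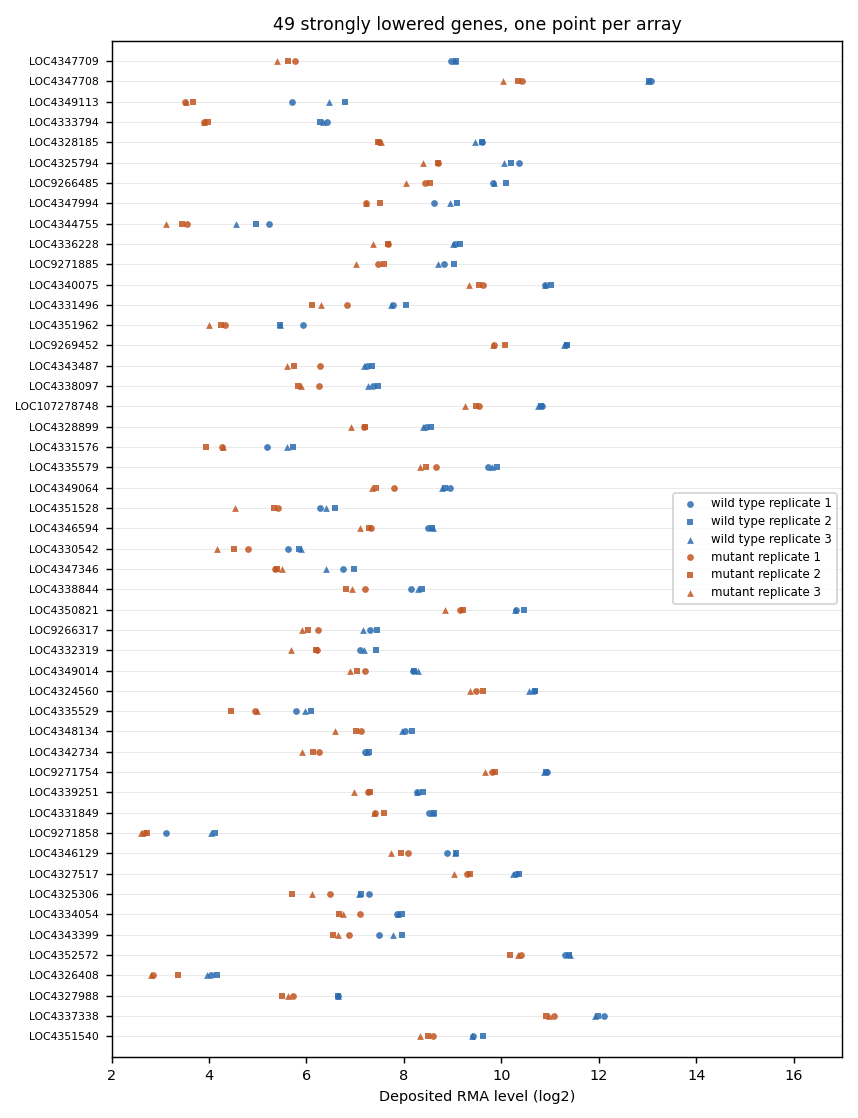
Deposited RMA level (log2, x axis) of the 49 strongly lowered genes (y axis, ordered by the size of the fall) on each of 6 arrays, wild type in blue and mutant in orange, with circles, squares and triangles for replicates 1, 2 and 3. In each row the mutant points lie left of the wild type points, as the choice of the genes required, and the widest gap is that of LOC4347709, at 3.22.

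The falls were mostly modest. Their median was -1.29 on the log2 scale, a 2.45-fold difference, while the median change of all 17905 genes was 0.10 upward. In 5 genes the fall exceeded 2, in 4 it lay between 1.5 and 2, in 21 between 1.2 and 1.5, and in 19 between 1 and 1.2. The gap between the lowest wild type and the highest mutant array had a median of 0.94, and in 21 genes it was over 1. Its smallest value was 0.41, in LOC9271858.

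The largest fall was that of LOC4347709 on chromosome 9. Its levels in replicates 1, 2 and 3 were 8.98, 9.07 and 9.06 in wild type and 5.76, 5.62 and 5.39 in mutant leaves. The difference was -3.45, a 10.9-fold fall. The wild type arrays were within 0.10 of each other, and the groups were 3.22 apart. The second largest fall was in the next protein-coding gene on the chromosome, LOC4347708, with 13.06, 13.03 and 13.01 in wild type and 10.42, 10.34 and 10.02 in mutant leaves. This gene fell by 2.77, or 6.83-fold, and its signal in mutant leaves, at a mean of 10.26 ± 0.21 (SD, n = 3), stayed far above the lower end of the scale. In both genes mutant replicate 3 had the lowest level.

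LOC4349113 on chromosome 10 read 5.71, 6.80 and 6.46 in wild type and 3.50, 3.66 and 3.53 in mutant leaves. Its difference of -2.76 rests on wild type arrays that spread over 1.09, the widest wild type range among the 49 genes, beside mutant arrays that spread over 0.17. LOC4333794 on chromosome 3 was steadier, with 6.41, 6.29 and 6.33 in wild type and 3.89, 3.97 and 3.89 in mutant leaves, a difference of -2.43. LOC4328185 on chromosome 2 had 9.61, 9.60 and 9.46 in wild type and 7.49, 7.46 and 7.52 in mutant leaves, a difference of -2.07. Its mutant arrays were the most even of all 49 genes, with a range of 0.06. These 5 genes stand clear of the rest in the plot of mutant against wild type levels, since the next largest fall was -1.61.

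**Figure D2:**
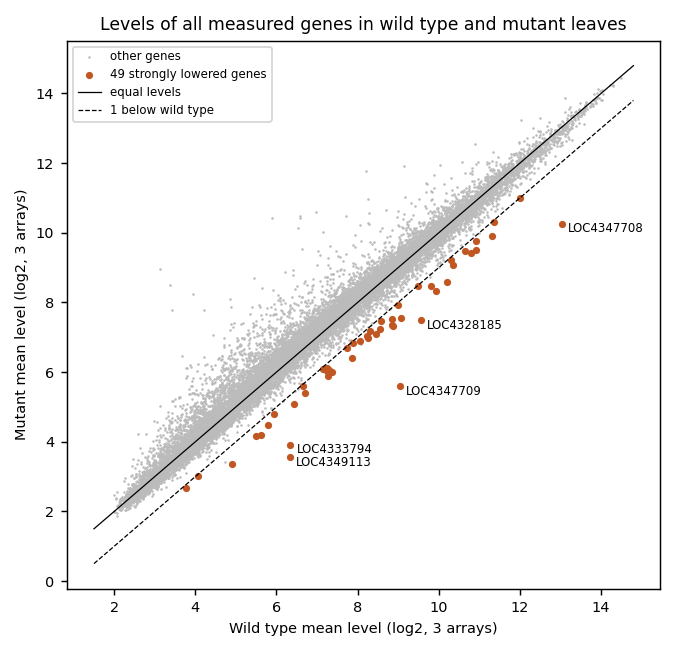
Mean level in mutant leaves (y axis, log2, 3 arrays) against mean level in wild type leaves (x axis, log2, 3 arrays) for 17905 genes, with the 49 strongly lowered genes in orange, a solid line at equal levels and a dashed line 1 below it. The 5 genes with a fall of over 2 are labelled.

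The next 7 of the 12 largest falls lay between -1.61 and -1.44. LOC4325794 on chromosome 1 had 10.36, 10.21 and 10.05 in wild type and 8.70, 8.69 and 8.39 in mutant leaves. LOC9266485 on chromosome 5 had 9.83, 10.09 and 9.85 against 8.43, 8.53 and 8.05. LOC4347994 on chromosome 10 had 8.62, 9.09 and 8.94 against 7.23, 7.51 and 7.22. In all 3 the groups were more than 1 apart. LOC4344755 on chromosome 8 had lower signals, with 5.22, 4.96 and 4.55 in wild type and 3.55, 3.45 and 3.12 in mutant leaves. LOC4336228 on chromosome 4 had 9.043, 9.144 and 9.001 against 7.67, 7.67 and 7.36. LOC9271885 on chromosome 9 had 8.82, 9.03 and 8.70 against 7.46, 7.59 and 7.02. Mutant replicate 3 was again the lowest array in each of these. LOC4340075 on chromosome 6 closed the 12 with 10.89, 11.01 and 10.89 against 9.62, 9.53 and 9.33.

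The named gene pla2-II encodes, by its name, a phospholipase A2, an enzyme class that cuts a fatty acid off membrane phospholipids and leaves a lysophospholipid. Its levels were 7.11, 7.43 and 7.19 in wild type and 6.22, 6.19 and 5.67 in mutant leaves, a difference of -1.22 with groups 0.89 apart. The other phospholipase A2 genes matched by name did not move with it. The levels of pla2-I (LOC4331254) were 6.57 ± 0.09 in wild type and 6.57 ± 0.08 in mutant leaves (SD, n = 3 each), a difference of -0.00 (SE 0.08, limma adjusted p = 0.977). PLA2-III (LOC4333862) rose by 1.12 (SE 0.22, limma adjusted p = 0.0101), from 3.56, 3.85 and 3.26 in wild type to 5.16, 4.46 and 4.43 in mutant leaves. Within this family of 3 measured genes, 1 was thus higher by the test over all genes, 1 did not pass and 1 was chosen for its fall, and 21% of all genes were higher and 6.32% lower by that test. The difference between the family members was not tested. A further gene whose synonyms include PLA2 (LOC4324983, also LHD2) is known as a regulator of leaf initiation rather than a phospholipase and had no single-gene probe set.

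The other genes with falls of more than 1.2 were found on every chromosome except chromosome 1. The long non-coding RNA LOC4331496 had 7.77, 8.04 and 7.74 in wild type and 6.83, 6.12 and 6.30 in mutant leaves, one of the 3 widest mutant ranges (0.70). LOC4351528 on chromosome 12 had the widest, 0.90, with 5.43, 5.32 and 4.53 in mutant leaves against 6.28, 6.58 and 6.40 in wild type. In both, the fall of -1.43 and -1.33 exceeded that range. Smaller spreads were seen in LOC9269452 on chromosome 6, with 11.33, 11.35 and 11.29 against 9.85, 10.08 and 9.82, and in LOC107278748 on chromosome 8, with 10.82, 10.82 and 10.75 against 9.54, 9.48 and 9.25. The remaining genes of this size ran from LOC4351962 (-1.42), LOC4343487 (-1.38), LOC4338097 (-1.38) and LOC4328899 (-1.36) through LOC4331576 (-1.34), LOC4335579 (-1.33), LOC4349064 (-1.33) and LOC4346594 (-1.32). They ended with LOC4330542 (-1.29), LOC4347346 (-1.29), LOC4338844 (-1.28), LOC4350821 (-1.28) and LOC9266317 (-1.24).

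Below that size came LOC4349014 (-1.19), LOC4324560 (-1.16), LOC4335529 (-1.15), LOC4348134 (-1.14), LOC4342734 (-1.14), LOC9271754 (-1.13), LOC4339251 (-1.13) and LOC4331849 (-1.11). LOC9271858 on chromosome 2, with -1.09, had low signals of 3.12, 4.12 and 4.04 in wild type and 2.67, 2.72 and 2.61 in mutant leaves. Its wild type replicate 1 lay closer to the mutant arrays than to the other wild type arrays. LOC4346129 (-1.08), LOC4327517 (-1.07), LOC4334054 (-1.05), LOC4343399 (-1.05), LOC4352572 (-1.05) and LOC4326408 (-1.05) followed. Of these, LOC4326408 had low signals in both groups, with 4.04, 4.17 and 3.96 in wild type and 2.85, 3.36 and 2.81 in mutant leaves. LOC4325306 (-1.06) had the second widest mutant range, 0.78, with 6.47, 5.69 and 6.12.

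The 3 genes just inside the threshold were LOC4327988 (-1.03), LOC4337338 (-1.02) and LOC4351540 (-1.02). Just outside it lay LOC4340438 (-0.995), LOC4333006 (-0.995) and LOC4332184 (-0.994), whose groups were also separated. LOC4351540 had 9.43, 9.63 and 9.41 in wild type and 8.59, 8.49 and 8.33 in mutant leaves, and LOC4340438 had 10.00, 10.01 and 10.00 against 9.10, 8.99 and 8.93.

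Within each group 1 array stood out for the 49 genes, low among the mutant arrays and high among the wild type arrays. Mutant replicate 3 held the lowest of the 3 mutant levels in 35 of 49 genes (71.4%), against 44.8% of all genes, and mutant replicate 1 held the highest in 29 (59.2%), close to the 55.5% of all genes. Wild type replicate 2 held the highest wild type level in 33 of 49 (67.3%), against 40.5% of all genes. The median deviation of the 49 genes from the group mean was 0.12 in mutant replicate 1, 0.04 in mutant replicate 2 and -0.14 in mutant replicate 3. For all genes the corresponding medians were 0.06, -0.02 and -0.04. Since the choice used these arrays, the shares are a description. With 1 of the 6 arrays left out at a time, between 45 and 57 genes met the thresholds, of which 42 to 48 were among the 49. The remaining arrays had also served to choose the 49 genes, so this overlap is no support for the falls.

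**Figure D3:**
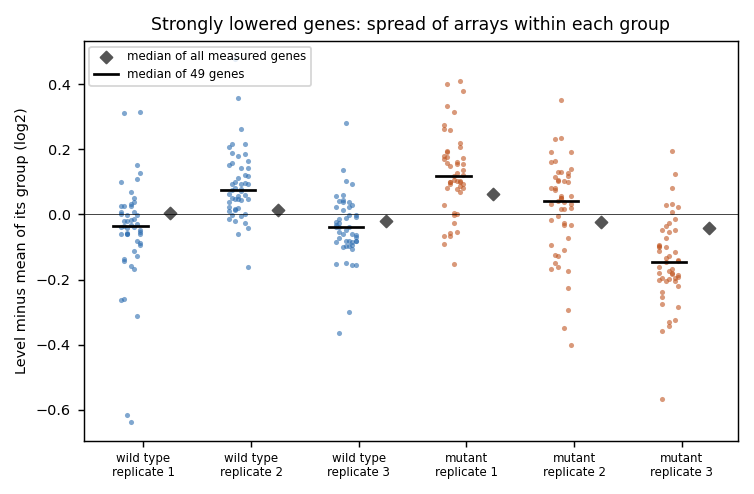
Level minus the mean of its own group (log2, y axis) for each of the 49 strongly lowered genes on each array (x axis), wild type in blue and mutant in orange, with a bar at their median and a grey diamond at the median of 17905 genes. Mutant replicate 3 has the lowest median of the 49 genes, -0.14, and mutant replicate 1 the highest, 0.12.

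Control probe sets of the array shared the highest and the lowest array with the 49 genes, though not the order between. The 36 probe sets for Bacillus dap, lys, phe and thr transcripts, which the array design holds for control RNA added from outside the plant, had medians of 8.65, 9.19 and 8.90 on the wild type arrays and 8.43, 8.79 and 8.14 on the mutant arrays. Wild type replicate 2 was the highest and mutant replicate 3 the lowest, as for the 49 genes, but the highest mutant array was replicate 2 here and replicate 1 for the 49 genes. All 36 had a lower mutant mean, with a median difference of -0.44, but 0 met the thresholds of the gene set. Separated groups were seen in 9 of the 36, while 13.4% of all genes had separated groups with the mutant lower. Several of the 36 read the same transcript, so they are not separate observations. The 27 Escherichia coli bio and P1 cre probe sets had a median difference of -0.13. The part of these shifts in the falls was not tested. With each array centred on the median of the Bacillus probe sets, an alternative chosen after seeing the data, the 49 differences ran from -2.99 to -0.56 and 11 of the 49 still met the thresholds. The 3′ minus 5′ difference of the actin probe sets, a measure of RNA integrity, was 2.25, 2.05 and 2.22 in wild type and 1.97, 2.15 and 2.26 in mutant arrays, so the groups overlapped.

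All 9 leaf and chloroplast markers listed were measured. Their summed signal was 16.43 to 16.46 (log2) in wild type and 16.35 to 16.43 in mutant arrays, and RBCS, the small subunit of Rubisco, had means of 14.30 and 14.20. In that list PSB28, NDH-M and GDCSH were lower and GLO3 higher by limma. Of all 17905 genes, 6.32% were lower and 21% higher by that test, which is the background for the counts in each list. Of 11 panicle and flower organ markers 7 were higher by limma, and their summed signal, most of it from MADS14, was 12.48 to 12.53 in wild type and 12.45 to 12.52 in mutant arrays. Of 5 dividing-cell markers 4 were higher, with a summed signal of 8.14 to 8.32 in wild type and 8.64 to 8.94 in mutant arrays. Of 4 vascular markers only LAC7 was higher, by 1.97, and the summed signal was 7.05 to 7.25 and 7.40 to 7.67. The vascular markers CesA4 (0.25), CesA7 (-0.30) and CesA9 (-0.17) did not pass. Of 4 root markers IRT1 was higher and NRT2.2 lower, with 9.57 to 9.76 and 9.41 to 9.68. None of these markers is among the 49 genes, and their part in the falls was not tested.

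The 49 genes lay on all 12 chromosomes. Against 0.274% of all 17905 genes that are among the 49, chromosome 10 held 5 of its 899 measured genes (0.556%), chromosome 9 held 5 of 962 (0.520%) and chromosome 12 held 4 of 908 (0.441%). Chromosome 1, where the targeted gene lies by its locus name, held 6 of 2649 (0.227%), and chromosome 3 held 6 of 2456 (0.244%). The lowest shares were on chromosome 11, with 1 of 846 (0.118%), and chromosome 6, with 2 of 1400 (0.143%). With the 4 genes that were left out counted too, chromosome 12 held 6 (0.661%), chromosomes 3 and 7 held 7 and 4, and the other counts are as given. The order of the chromosomes thus turns on the genes left out, and these shares are counts only.

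**Figure D4:**
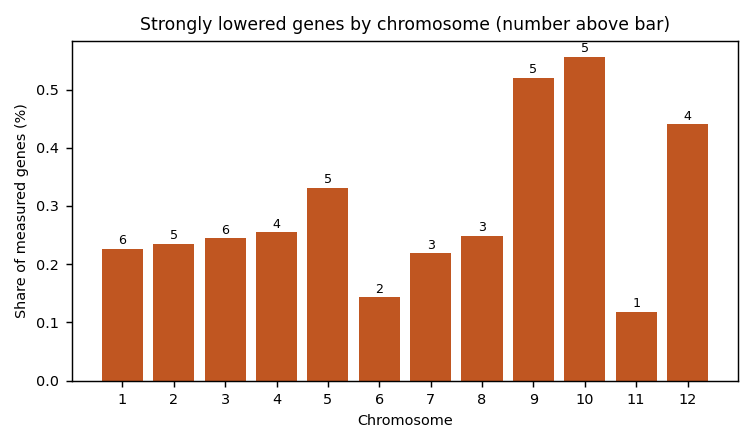
Share of the measured genes of each chromosome (x axis) that belong to the 49 strongly lowered genes (y axis, percent), with the number of such genes above each bar. Chromosomes 9 and 10 hold 5 genes each, chromosome 11 holds 1.

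Among the 48 genes with a place in the order of protein-coding genes, 2 pairs lay within 5 places of each other. LOC4347708 and LOC4347709 were direct neighbours in this order, with a long non-coding RNA and a small nucleolar RNA gene of RefSeq between them that had no single-gene probe set. The genes on both sides of the pair did not pass the test. LOC4347707, the gene before it, had 6.75, 6.78 and 6.61 in wild type and 6.92, 6.24 and 6.75 in mutant leaves, a difference of -0.08. LOC4347710, the gene after it, named OsPAD1, had 10.24, 10.28 and 10.34 against 10.27, 10.18 and 10.15, a difference of -0.09. In both the groups overlapped. Further out, LOC4347696 (0.61), LOC9269342 (0.44) and LOC4347715 (0.61) were higher by limma, and the other measured genes of this stretch differed by -0.16 to 0.34 without passing.

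The second pair was on chromosome 5, where LOC9266317 and LOC9266485 were separated by LOC4337707. LOC9266317 had 7.30, 7.45 and 7.15 in wild type and 6.24, 6.04 and 5.90 in mutant leaves, while the values of LOC9266485 are given above. The gene between them was at low signal in both groups, with 2.38, 2.54 and 2.53 in wild type and 2.75, 2.69 and 2.67 in mutant leaves, and did not pass by limma. Around the pair LOC4337704, directly beside LOC9266317, was higher by 0.98 (SE 0.15, limma adjusted p = 0.0033), LOC9270212 by 0.70 and LOC4337699 by 0.47, while LOC4337711 was lower by 0.35. LOC4337701, known as OSH71 and of the KNOX homeobox family, was higher by 1.10 (SE 0.25, limma adjusted p = 0.0169). The probe set of LOC9266485 ends in _s_at, a mark of probes that can bind several transcripts, so related sequences may share its signal. A looser pair, LOC4351528 and LOC4351540 on chromosome 12, was 15 places apart.

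**Figure D5:**
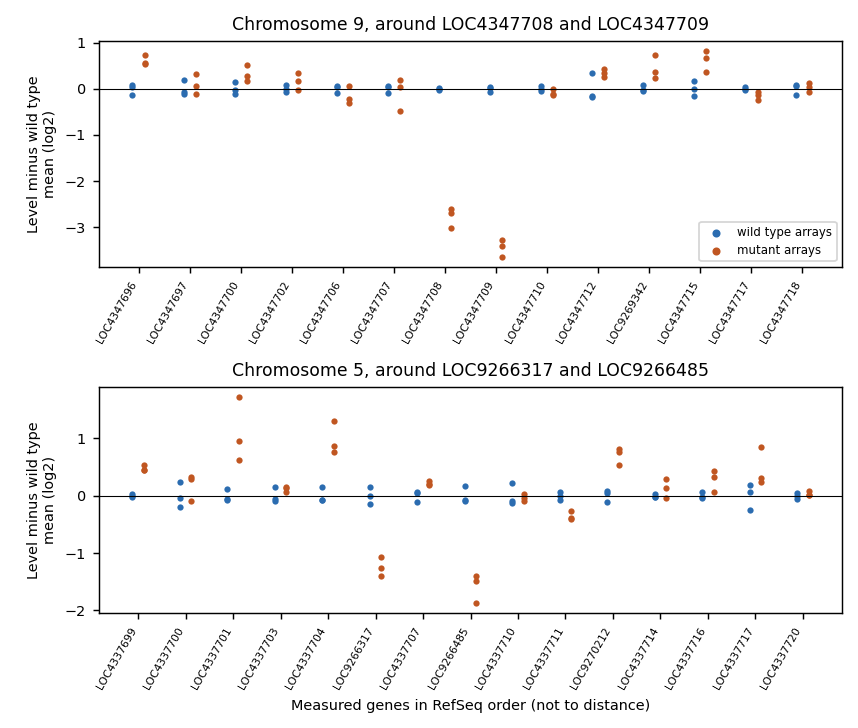
Level minus the wild type mean of the same gene (log2, y axis) on each wild type array (blue) and mutant array (orange) for the measured genes around 2 pairs of lowered genes, in RefSeq order and not to distance (x axis). On chromosome 9 the mutant points of LOC4347708 and LOC4347709 lie 2.6 or more below the wild type mean, while those of the other genes all lie within 1 of their own wild type mean.

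For all the lowered genes together, the share of neighbours lower by limma came nearer the background as the stretch widened, in the levels as deposited. Within 3 places it was 17 of 169 (10.1%) and within 10 places 33 of 548 (6.02%), against 6.32% of all genes. With arrays centred on the median of their genes it did not come nearer, at 21.9% within 3 places and 20.3% within 10, against 21.98%. The change with width was not tested. Within 5 protein-coding genes on each side there were 290 measured genes outside the set, of which 24 (8.28%) were lower and 73 (25.2%) higher by limma, against 6.32% and 21% of all 17905 genes. With arrays centred on the median of their genes, 61 (21.0%) were lower and 33 (11.4%) higher. Of all genes 3935 (21.98%) were then lower and 1804 higher, so the balance turned for all genes as well. With arrays shifted by their genes' median deviation, 39 (13.4%) were lower and 54 (18.6%) higher, against 2167 (12.1%) and 2704 of all genes. As deposited, the median difference of these neighbours was 0.10, equal to that of all genes, and the largest fall among those called was 0.74. Among the 58 measured genes directly next to a lowered gene, 7 (12.1%) were lower and 9 (15.5%) higher, a width chosen after seeing the data. The lower count was 6 (10.3%, against 3.58% of all genes) with arrays centred on the median of probe sets, 14 (24.1%, against 21.98%) on that of genes and 10 (17.2%, against 12.1%) with the shift. It was 0 with arrays centred on the Bacillus probe sets, where 0 of the 58 had a lower mean with an unadjusted limma p under 0.05 and 0.229% of all genes were lower.

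The 7 adjacent genes that fell could not reach the thresholds of the gene set, since any that did would have been counted in it. WRKY24 (LOC4327518), a WRKY transcription factor next to LOC4327517, fell by 0.74 (SE 0.09, limma adjusted p = 0.00136). MT2B (LOC4326409), of the metallothioneins that bind metal ions, lies next to LOC4326408 and fell by 0.50 (SE 0.07, limma adjusted p = 0.00294). GDCSH (LOC4349114), named for the H protein of the glycine decarboxylase complex of photorespiration, lies next to LOC4349113 and fell by 0.48 (SE 0.08, limma adjusted p = 0.00380). In the last pair the neighbour changed from a mean of 12.34 to 11.85 while LOC4349113 went from 6.32 to 3.56. The other 4 were LOC4327987 (-0.51), LOC4328186 (-0.47), LOC4350822 (-0.38) and LOC4338098 (-0.34).

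In the opposite direction, 13 genes within 5 places of a lowered gene rose by 1 or more by limma, which is 4.48% of the 290 measured, near the 3.02% of all genes. They are listed as the surroundings of the lowered genes and not as a trait of them. The largest of these rises was in LOC4335526 on chromosome 4, which lies 2 places from LOC4335529. It went from 3.37, 3.58 and 3.15 in wild type to 8.59, 8.31 and 8.61 in mutant leaves, a rise of 5.14 (SE 0.13, limma adjusted p = 1.75e-06). LOC4335529 itself went from 5.77, 6.08 and 5.96 to 4.94, 4.44 and 4.98. Its chosen probe set ends in _x_at, which marks probes that can bind related sequences, and its 2 other probe sets, with wild type means of 2.78 and 2.30, differed by -0.58 with groups separated and by 0.00 with groups overlapping. A fall of 1 or more was thus seen on 1 of 3 probe sets, and the others had low signals in both groups. The gene next in size was MADS7 (LOC4346134), a floral MADS-box gene 5 places from LOC4346129, with a rise of 1.71.

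The remaining rises near lowered genes were LOC4352567 (1.55), LOC4339260 (1.54), LOC4331855 (1.53), LOC4331852 (1.52), LOC4349062 (1.47), the lipoxygenase gene LOX1.1 (LOC4334049, 1.28), LOC4325303 (1.26), LOC4347344 (1.24), OSH71 (1.10), LOC4348138 (1.09) and LOC4350823 (1.05). LOC4331849 had 2 of them within 5 places on chromosome 3. LOC4350821 on chromosome 11 had a lower neighbour (LOC4350822) directly beside it and a higher one (LOC4350823) one place further.

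Whether a fall was seen by more than 1 probe set could be asked of 8 genes, which had 9 further single-gene probe sets. These come from the same arrays and are no independent support. In LOC4340075, LOC9271754 and LOC4351540 the second probe set differed by -1.36, -1.13 and -0.94, close to the chosen one at -1.44, -1.13 and -1.02. In LOC4347346 it differed by -0.30 against -1.29. The second probe sets of LOC4335579, LOC4343399 and LOC4347994 differed by -0.10, -0.00 and -0.11 with overlapping groups, and their wild type means of 3.96, 3.13 and 2.22 lay at the low end of the scale.

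A further 3 genes are reached if a gene may be taken by any of its probe sets rather than by the one with the highest mean, which gives 52 genes in place of 49. The phosphate transporter gene OsPT1 (LOC4331635) fell by 1.47 on 1 probe set, from 8.72, 8.74 and 8.61 to 7.34, 7.27 and 7.06, while its probe set with the highest mean differed by 0.27. LOC4340892 differed by -1.24 on 1 probe set and by 0.09 on the other. LOC4342731, which lies 3 places from LOC4342734 on chromosome 7, differed by -1.36 and -0.74, so that both of its probe sets went down. In addition, 46 of 34822 probe sets without exactly 1 gene in the annotation (0.132%) met the thresholds and are left unnamed.

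Of the 49 genes, 7 overlap another RefSeq gene, and the files do not state how far probes tell the strands apart. In LOC4336228, LOC4349014, LOC4327988 and LOC4337338 the overlapping gene is protein-coding and has a probe set of its own. LOC4331496 overlaps a protein-coding gene without a single-gene probe set, and LOC4346129 and LOC4325306 overlap long non-coding RNAs. Of the 49 chosen probe sets 44 end in plain _at, 3 in _x_at, 1 in _s_at and 1 in _a_at.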

How the data were processed

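Flag leaf RNA from 3 wild type and 3 mutant samples was measured on one Affymetrix Rice Genome Array each, after biotin labelling. The authors deposited RMA levels of probe sets, on a log2 scale as judged from their range of 1.65 to 14.5, and the submitters' processing notes name RMA and affy. RMA equalises the distribution of signals between arrays, so differences in total RNA are removed. Versions and scan dates are not given in the sources used here, so scan batches were not analysed here.

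Of 57381 probe sets, 123 AFFX controls were left out. Of the others, 22436 had 1 gene in the platform annotation, 95 several and 34727 none. All 17905 genes matched the RefSeq gene table of assembly ASM3414082v1, which was used for names, chromosomes and gene order, without coordinates. A gene was represented by its probe set with the highest mean over 6 arrays. The choice of the genes, their lists and tests were made with earlier results of these data known. Genes were named by rule: the named gene, the 12 largest falls, genes near another lowered gene, genes near the threshold or with the most or least even mutant arrays, and neighbours called by limma with a change of 1 or more. Other genes of the set and the adjacent neighbours that fell were named after their values were seen.

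The test over all genes was limma's moderated test (limma 3.58.1, R 4.3.3), two-sided, with a Benjamini-Hochberg adjusted p under 0.05 as the call. It was also run on simulated data with independent noise and no shift between arrays. Such data cannot show how the test behaves on arrays with shifts. The labels call the arrays biological replicates but do not say how many plants stood behind each. How far the spread behind the p-values holds differences between plants is therefore not known. Python 3.11.15, pandas 2.3.3 and matplotlib 3.10.9 served for tables and figures. The labels do not say whether replicate numbers pair the samples, and the main test did not treat them as pairs. Promoter and protein sequences were not used here.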

Additional observations from a re-analysis of the deposited data

How the results depend on the processing

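Leaving out 1 array at a time gave 45 to 57 strongly lowered genes. Counts moved beyond 1.5 times with arrays centred on the median of their genes (95, all 49 among them), with genes above the median level alone (28), with arrays centred on the Bacillus control probe sets (11, chosen after seeing the data), and with thresholds of -1.5 (9) or -0.8 (89), which shift the count by construction. The other alternatives gave 43 to 63. Over 13 alternatives the differences of the 49 genes, where still measured, stayed below 0. The exception was LOC4335529, at 0.0037 once probe sets marked _s_at and _x_at were dropped. The choice of the genes fixed the sign in advance where an array was left out or low genes were dropped. The scalings moved values by less than the fall that the choice required. The sign is therefore no support for the falls.

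Genes lower and higher by limma numbered 1131 and 3752. With a replicate block they numbered 1011 and 3743. Same-numbered arrays of the 2 groups deviated together with r of 0.12, 0.12 and -0.02, and differently numbered ones with r from -0.32 to 0.25. These values cannot decide whether the numbers pair the samples. Leaving out 1 array gave 572 to 1024 lower and 2128 to 3639 higher genes, where leaving out wild type replicate 2 gave 573 and 2427, wild type replicate 3 gave 572 and 2128, and mutant replicate 3 gave 748 lower. Centring on the median of probe sets gave 641 lower and 3995 higher, on the median of genes 3935 and 1804, the shift by the median deviation 2167 and 2704, and the Bacillus centring 41 and 6672. Over all probe sets 1897 were lower. These scalings moved the median change of all genes from 0.10 to 0.15, -0.12, -0.00 and 0.56.

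The 24 lower genes within 5 places (8.28% of 290) became 7 within 1 place (12.1% of 58). With arrays centred on the median of probe sets they became 14 (4.83%, against 3.58% of all genes). Centring on the median of genes gave 61 (21.0%, against 21.98%). The shift gave 39 (13.4%, against 12.1%) and the Bacillus centring 0 (against 0.229%). The 73 higher genes (25.2%) became 76 (26.2%), 33 (11.4%), 54 (18.6%) and 118 (40.7%) under these 4 scalings. Of all 17905 genes 3995, 1804, 2704 and 6672 were then higher. With a replicate block 22 were lower. The cause of these movements was not tested.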
